A study of Homo sapiens with 6 samples.

Results

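Amino acid transporters carry amino acids across the plasma membrane and out of lysosomes. The genes described here are all rows of the deposited table in the solute carrier families SLC1, SLC6, SLC7, SLC36, SLC38 and SLC43, apart from the cystine carrier SLC7A11, which was left out by the choice of members. The choice gave 51 of the 33707 genes in the table. It also takes in relatives that carry other substrates, among them the purine nucleobase carrier SLC43A3, the creatine carrier SLC6A8 and the monoamine carriers SLC6A3 and SLC6A4.

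The RNA came from Huh7, an established line from a human hepatocellular carcinoma, collected on day 2. One group of 3 libraries had received miR-361-3p mimics, a synthetic form of a microRNA, and the other group of 3 had received mimics-NC, the negative control. Both were delivered with a lipid reagent into cells at 70% density, so all 6 libraries come from transfected cells. The labels tag replicate 3 of the mimics as Huh8 and tag the mimics-NC libraries as wild type Huh7 cells, while the titles name Huh7 and mimics-NC, and the titles were followed. Nothing in the labels says that the replicates were separate cultures, so p-values set the group difference against a spread between libraries that may be technical.

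Cells take up amino acids through a division of labour. Sodium-coupled carriers such as SLC38A1 and SLC38A2 concentrate glutamine, alanine and serine in the cell, and SLC1A5 exchanges neutral amino acids together with sodium. Exchangers of the SLC7 family trade such amino acids for leucine and other essential amino acids. The SLC7 exchangers reach the membrane bound to a heavy chain, SLC3A2 or SLC3A1, while the CAT carriers of the same family, SLC7A1 and SLC7A2, which import arginine and lysine, need none. Several of these genes are known to be induced by the transcription factor ATF4 when amino acids run short, and carriers of the lysosomal membrane report on amino acid supply to the kinase complex mTORC1.

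The labels do not spell out the mimic's sequence, and the mature miR-361-3p was used in its place. The RefSeq entry (GRCh38.p14, chrX:85903641-85903663, minus strand) reads as follows, with the seed, bases 2 to 8, in capitals.
hsa-miR-361-3p: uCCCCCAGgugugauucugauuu

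A transcript that pairs with the seed holds CTGGGGG (a 7mer-m8 site), TGGGGGA (a 7mer-A1 site) or both as CTGGGGGA (an 8mer site). The longest annotated 3' UTR of each gene in GENCODE 29 (GRCh38) was searched on the transcript strand. Among the 18 transporter genes tested, 8 held at least 1 of these sites and 3 held an 8mer, against 26.0% and 5.75% of the 9544 genes tested that have such a UTR. The transporter UTRs were longer, with a median of 2934.5 bases against 1318.5 bases for those 9544 genes. The sites below are those of the 3 tested genes with an 8mer. Each stretch is 30 bases of the mRNA strand, with the match to the seed in capitals.
SLC7A5, chr16:87832616-87832645, minus strand: actaagatgattttttaaggagCTGGGGGA
SLC6A6, chr3:14486291-14486320, plus strand: gcttttgagtctgtatcctccaCTGGGGGA
SLC36A1, chr5:151492084-151492113, plus strand: tttggtttaaatcaaagtgattCTGGGGGA

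Levels are given as RPKM, reads per kilobase of gene and per 1000000 assigned reads, which allows levels of different genes to be compared. The libraries held 35020139 to 44774192 assigned reads in the mimic group and 42196419 to 52977132 in the mimics-NC group. The liver genes FGB (1919 to 2003 RPKM with mimics, 2090 to 2129 with mimics-NC), APOB and SERPINA1 were abundant, and the 10 hepatocyte markers summed to 3710 to 3825 and 3932 to 4051 RPKM, while AFP, which Huh7 cells are known to secrete, was low, at 0.990 to 1.31 and 1.19 to 1.29 RPKM. TTR, another hepatocyte marker, was below 1 RPKM and was not tested. It was at 0.394, 0.781 and 0.576 RPKM with mimics and at 0.240, 0.226 and 0.348 RPKM with mimics-NC. Of 9 hepatocyte markers tested, none passed limma, 2 had an unadjusted p under 0.05, and by voom 0 rose and 3 fell. Over the 13158 genes tested, 21.5% passed limma in either direction and 4721 had an unadjusted p under 0.05. By voom 12.6% of them rose and 15.7% fell. The summed level of 5 immune markers was 44.9 to 51.0 RPKM with mimics and 44.2 to 48.2 with mimics-NC, nearly all of it CD68 and LYZ, with PTPRC at most 0.0068. The 5 endothelial markers summed to 4.32 to 4.67 and 4.27 to 4.37 RPKM, nearly all PECAM1, and TEK was listed at 0 in the 3 mimic libraries. The 5 fibroblast and stellate markers summed to 1.15 to 1.57 and 1.49 to 2.66 RPKM. The 5 cholangiocyte markers summed to 1.30 to 1.47 and 0.870 to 1.20 RPKM, mostly SOX9. Of these 20 markers, 3 were tested and 0 passed by limma or by voom, with 0 at an unadjusted p under 0.05. Fewer cells of a type and less RNA per cell cannot be told apart in such bulk libraries, and the part of these markers in the results below was not tested.

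The test took in 18 of the 51 transporter genes, those whose level averaged 1 RPKM or more across all 6 libraries, and 33 were lower. Of the 18 tested, 8 rose with the mimics and 0 fell (limma, adjusted p under 0.05), against 11.7% of the 13158 genes tested that rose and 9.85% that fell. At an unadjusted p under 0.05, 10 of the 18 were higher and 0 lower, beside 4721 of the 13158 genes tested in either direction. By voom on the recovered reads 9 rose and 2 fell, against 12.6% and 15.7% of all genes tested. The 3 mimic values lay above the 3 mimics-NC values in 10 of the 18 genes and below them in 2, against 22.3% and 19.1% of all genes tested. The median log2 fold change, mimics over mimics-NC, was 0.16 over the 18 genes and 0.012 over all genes tested. Each of the 8 genes that rose was above 1 RPKM in all 6 libraries, so none passed the filter through the mimic group alone. The count of 8 fell to 2 to 4 when 1 library was left out, and SLC1A5 and SLC38A2 were the genes that kept their call in every such fit. They were also the only 2 of the 8 to keep it with no filter on low genes.

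**Figure D1:**
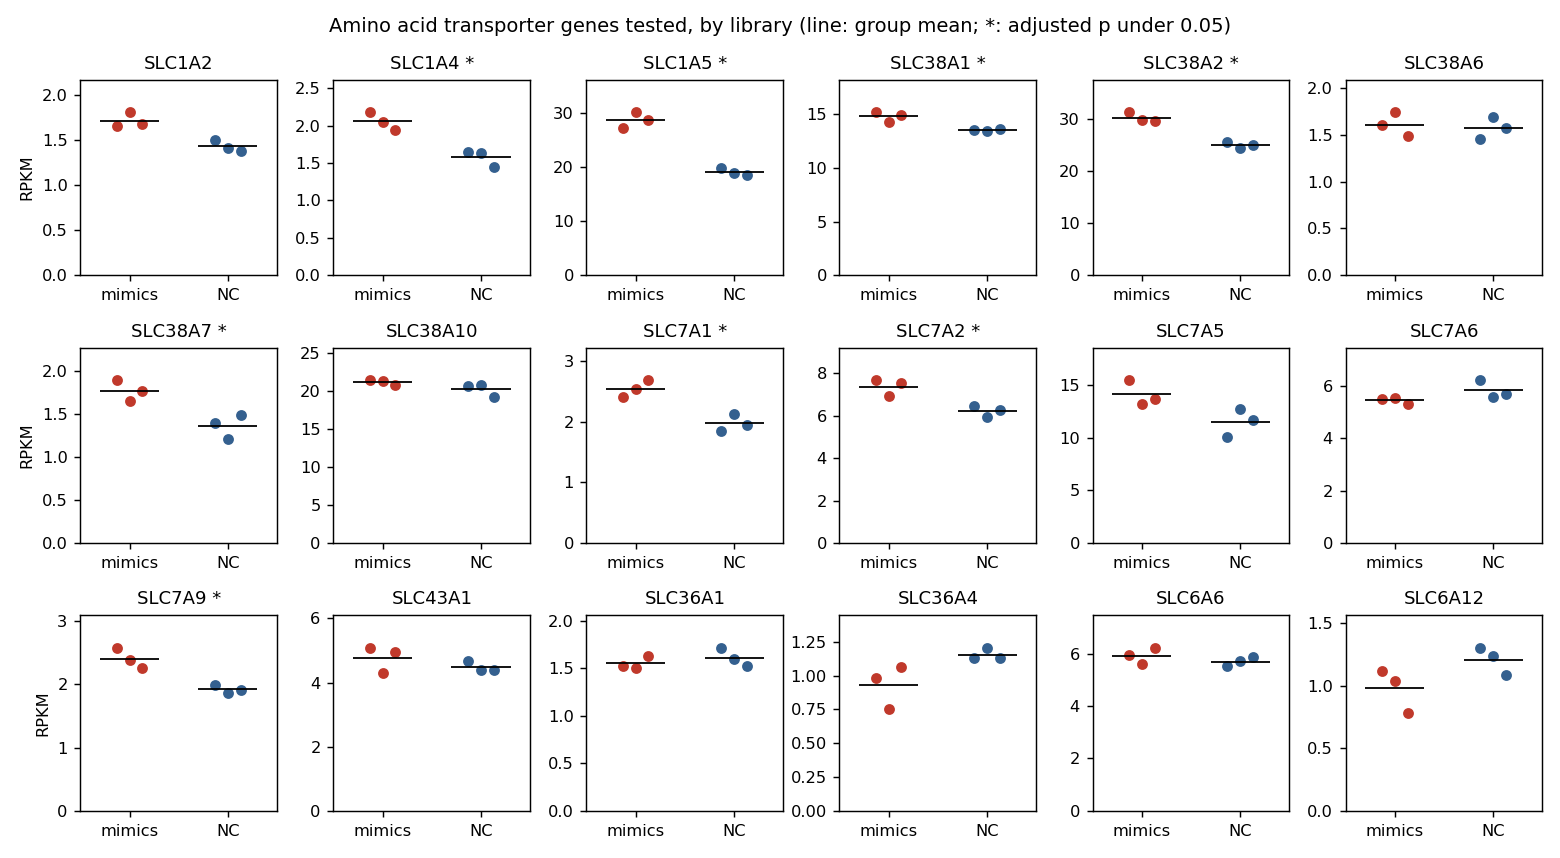
RPKM of the 18 transporter genes tested, 1 panel per gene, with the 3 libraries of miR-361-3p mimics on the left, the 3 of mimics-NC (NC) on the right, and the group mean as a line. Each vertical axis starts at 0, and an asterisk marks the 8 genes that rose.

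In the SLC1 family, SLC1A5 and SLC1A4 rose and SLC1A2 did not pass the test. SLC1A5, known as ASCT2, exchanges glutamine and other neutral amino acids together with sodium (GRCh38, chr19:46774883-46788594). It was at 27.3, 30.1 and 28.7 RPKM in the mimic libraries and at 19.9, 19.0 and 18.5 RPKM in the mimics-NC libraries. The groups lay far apart, with means of 28.7 ± 1.42 and 19.1 ± 0.698 RPKM (SD, n = 3 each), a ratio of 1.50. Its log2 fold change of 0.57 (SE 0.048, adjusted p = 0.00054) was the largest of the 18 genes, and 128 of the 13158 genes tested had a larger one. The call held in all 14 alternative fits.

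The exons of SLC1A5 share 780 bases, 23.4% of its length, with the gene CTB-147N14.6 on the opposite strand. That gene was at 9.97, 9.92 and 9.50 RPKM with mimics and at 6.86, 6.48 and 5.90 RPKM with mimics-NC, a log2 fold change of 0.58 (adjusted p = 0.0011). Both genes were thus higher in the mimic libraries by nearly the same fold. The sources used here do not say whether the counting kept the strands apart, and how the reads were shared between the 2 genes was not tested.

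SLC1A4, or ASCT1, carries alanine, serine, cysteine and threonine. It was at 2.18, 2.05 and 1.95 RPKM with mimics and at 1.65, 1.63 and 1.44 RPKM with mimics-NC, with no overlap. The log2 fold change was 0.30 (SE 0.071, adjusted p = 0.024). This call was lost without mimic replicate 1 or 2 or mimics-NC replicate 2 or 3, with adjusted p up to 0.074. SLC1A2, a glutamate and aspartate carrier best known from astrocytes, was at 1.66, 1.81 and 1.69 RPKM with mimics and at 1.50, 1.42 and 1.38 RPKM with mimics-NC. The groups did not overlap, but the adjusted p was 0.072 by limma and 0.0084 by voom. The other glutamate carriers were below the filter: SLC1A3 had 0.228 to 0.367 RPKM with mimics and 0.221 to 0.307 with mimics-NC, on 50 to 103 and 60 to 102 reads, and SLC1A7 had 0 reads in every mimic library and at most 4 in a mimics-NC library.

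In the SLC38 family of sodium-coupled neutral amino acid transporters, 3 of 5 genes tested rose, SLC38A2, SLC38A1 and SLC38A7, against 11.7% of all genes tested. SLC38A2 (SNAT2), which takes up alanine, serine, glutamine and other small neutral amino acids, had the highest mean level of the 51 genes (chr12:46358189-46372867). It was at 31.3, 29.8 and 29.7 RPKM with mimics and at 25.6, 24.4 and 25.1 RPKM with mimics-NC. Every mimic library was above every control library, and the log2 fold change was 0.27 (SE 0.037, adjusted p = 0.0035). The call held in all 14 alternative fits. No seed match was found in its 3' UTR.

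SLC38A1 (SNAT1), a glutamine carrier, lies beside SLC38A2 on chromosome 12 (chr12:46183063-46270017). It was at 15.2, 14.3 and 14.9 RPKM with mimics and at 13.5, 13.4 and 13.6 RPKM with mimics-NC, a ratio of 1.10. This was the smallest of the rises, with a log2 fold change of 0.13 (SE 0.036, adjusted p = 0.046). With 1 library left out the call held only without mimic replicate 2, with adjusted p up to 0.13, and it was lost under median-of-ratios scaling (adjusted p = 0.065), quantile normalization (0.058) and voom (0.057). SLC38A7 (SNAT7), which exports glutamine from lysosomes, was at 1.89, 1.65 and 1.76 RPKM with mimics and at 1.39, 1.21 and 1.49 RPKM with mimics-NC. Its log2 fold change was 0.28 (SE 0.082, adjusted p = 0.049), and leaving out any single library ended the call (0.060 to 0.13), as did a pseudocount of 0.1 (0.0501).

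SLC38A10, the third most abundant transporter gene, whose substrates are less settled, did not pass the test. It was at 21.5, 21.4 and 20.8 RPKM with mimics and at 20.8, 20.8 and 19.3 RPKM with mimics-NC, and the groups overlapped. Its log2 fold change was 0.065 with a 95% confidence interval of -0.033 to 0.16, so a change of the size seen in SLC38A2 lay outside the interval. It shares 610 bases, 7.91% of its length, with RP11-455O6.8 on the opposite strand, which was at 19.6, 21.4 and 19.5 RPKM with mimics and at 17.1, 18.0 and 16.3 RPKM with mimics-NC. The adjusted p of RP11-455O6.8 was 0.022 by limma with all libraries, 0.054 by voom, and up to 0.070 with 1 library left out, where 3 of 6 fits passed. SLC38A6 had 1.49 to 1.74 RPKM with mimics and 1.45 to 1.69 with mimics-NC. SLC38A9, the arginine sensor of the lysosome, was just below the filter, at 0.683, 0.640 and 0.657 RPKM with mimics and at 0.666, 0.911 and 0.802 RPKM with mimics-NC. SLC38A11, an orphan member, was also below it, at 0.648, 0.603 and 0.733 RPKM with mimics and at 0.307, 0.333 and 0.348 RPKM with mimics-NC. These levels rest on 126 to 182 and 72 to 98 reads per library. With the filter lowered to 0.1 RPKM, SLC38A11 had a log2 fold change of 0.48 (adjusted p = 0.013), where 5.95% of the 20975 genes tested rose.

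The SLC7 family holds 2 kinds of carrier, the cationic amino acid transporters and the exchangers that need a heavy chain. Both cationic carriers tested rose. SLC7A1 (CAT1), which imports arginine, lysine and ornithine, was at 2.41, 2.53 and 2.68 RPKM with mimics and at 1.85, 2.13 and 1.94 RPKM with mimics-NC. The log2 fold change was 0.30 (SE 0.068, adjusted p = 0.022), and the call was lost without mimic replicate 2 or 3 or mimics-NC replicate 1 or 3 (adjusted p up to 0.072). SLC7A2 (CAT2), whose transcripts are known from liver, was at 7.68, 6.91 and 7.54 RPKM with mimics and at 6.45, 5.96 and 6.28 RPKM with mimics-NC. No mimic library overlapped the controls, and the log2 fold change was 0.23 (SE 0.054, adjusted p = 0.026). That call was lost without mimic replicate 1 or 3 or mimics-NC replicate 2 or 3 (adjusted p up to 0.083).

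Of the exchangers, SLC7A9 rose, and SLC7A5 and SLC7A6 did not pass the test. SLC7A9 (b0,+AT), which takes up cystine and cationic amino acids and is best known from kidney and gut, was at 2.57, 2.38 and 2.26 RPKM with mimics and at 1.98, 1.87 and 1.91 RPKM with mimics-NC. Its log2 fold change was 0.26 (SE 0.063, adjusted p = 0.026), and of the fits with 1 library left out it kept its call in the one that dropped mimic replicate 3 (0.041, others up to 0.083). SLC7A5 (LAT1), the main importer of leucine and other large neutral amino acids in many tumours, was at 15.5, 13.2 and 13.7 RPKM with mimics and at 10.1, 12.7 and 11.7 RPKM with mimics-NC. The groups lay apart but the controls were spread, with means of 14.1 ± 1.20 and 11.5 ± 1.33 RPKM (SD, n = 3 each). The log2 fold change was 0.29 with a 95% confidence interval of 0.069 to 0.50, and the adjusted p was 0.068 by limma and 0.011 by voom. SLC7A5 has pseudogene copies, SLC7A5P1 and SLC7A5P2, and SLC7A5P2 was at 3.78, 2.33 and 3.46 RPKM with mimics and at 2.12, 2.99 and 2.82 RPKM with mimics-NC. Reads could be split between such copies, which makes the level of SLC7A5 uncertain.

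SLC7A6 (y+LAT2), which trades cationic for neutral amino acids, was at 5.51, 5.54 and 5.32 RPKM with mimics and at 6.22, 5.59 and 5.70 RPKM with mimics-NC. It was the only tested SLC7 gene with lower values in the mimic libraries, with a log2 fold change of -0.088 (95% confidence interval -0.21 to 0.032, adjusted p = 0.26). Its exons share 3371 bases, 44.4% of its length, with SLC7A6OS on the opposite strand. The remaining SLC7 genes were scarce: SLC7A8 (LAT2) had 0.246 to 0.338 RPKM with mimics and 0.214 to 0.302 with mimics-NC, and SLC7A7 (y+LAT1) had 0.192 to 0.275 and 0.199 to 0.233 RPKM.

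**Figure D2:**
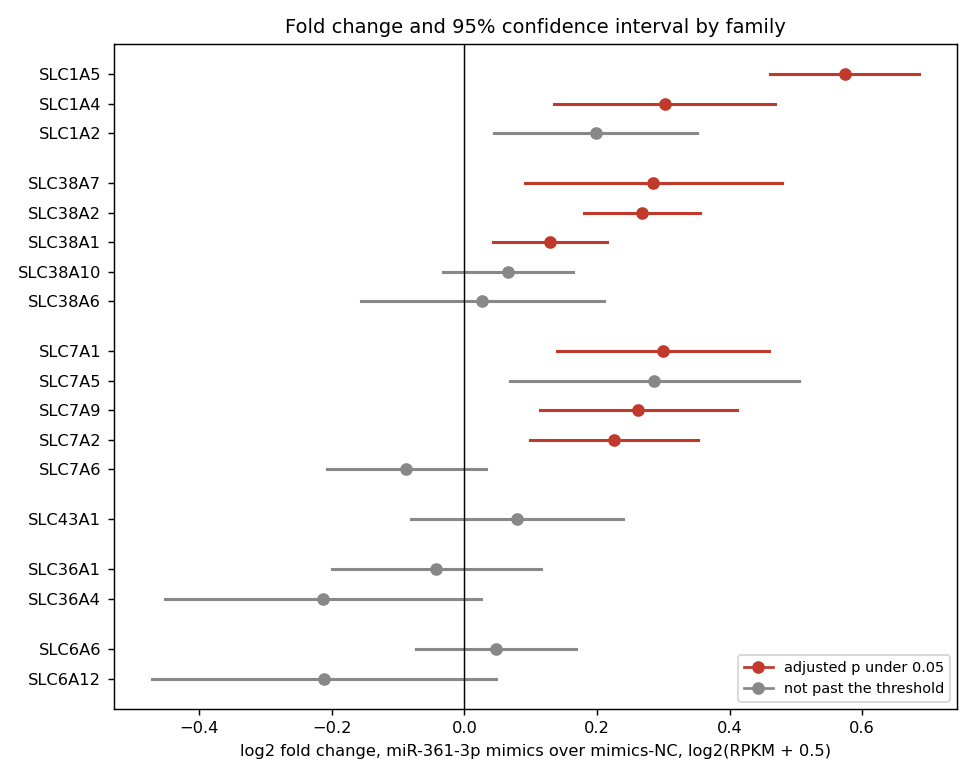
Log2 fold change of each tested transporter gene, mimics over mimics-NC on the log2(RPKM + 0.5) scale, with its 95% confidence interval, grouped from top to bottom as SLC1, SLC38, SLC7, SLC43, SLC36 and SLC6. The 8 genes that rose, in red, all belong to the upper 3 families, which hold most of the genes tested. SLC1A5 at 0.57 stands to the right of the others.

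In the 3 other families 0 of 5 genes tested passed by limma, with 0 at an unadjusted p under 0.05. Over all genes tested 21.5% passed in either direction, and 4721 of 13158 had an unadjusted p under 0.05. A count of 0 among 5 genes therefore does not set these families apart. SLC43A1 (LAT3), which carries leucine and other branched-chain amino acids without sodium, was at 5.08, 4.28 and 4.95 RPKM with mimics and at 4.66, 4.39 and 4.38 RPKM with mimics-NC. Its 95% confidence interval of -0.081 to 0.24 on the log2 scale leaves room for a rise like that of SLC7A2. SLC43A3, the next most abundant of that family, was at 0.164 to 0.262 RPKM with mimics and 0.255 to 0.341 with mimics-NC. SLC6A6, the taurine transporter, was at 5.93, 5.58 and 6.21 RPKM with mimics and at 5.52, 5.70 and 5.86 RPKM with mimics-NC (log2 fold change 0.048, adjusted p = 0.54). It holds an 8mer printed above, and its groups overlapped.

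The tested carriers of SLC36 and the betaine and GABA transporter SLC6A12 had lower means with the mimics, and none passed limma. SLC36A1 (PAT1), which moves small amino acids out of lysosomes, was at 1.52, 1.50 and 1.63 RPKM with mimics and at 1.71, 1.60 and 1.53 RPKM with mimics-NC (adjusted p = 0.69). SLC36A4 (PAT4), a carrier of proline and tryptophan just above the filter, was at 0.982, 0.752 and 1.06 RPKM with mimics and at 1.13, 1.20 and 1.13 RPKM with mimics-NC. Its groups did not overlap, with an adjusted p of 0.18 by limma and 0.017 by voom. SLC6A12 (BGT1), also just above the filter, was at 1.12, 1.04 and 0.784 RPKM with mimics and at 1.30, 1.24 and 1.08 RPKM with mimics-NC. Those groups overlapped, and the adjusted p was 0.21 by limma and 0.046 by voom. SLC36A4 and SLC6A12 are the 2 genes that fell by voom.

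Of the 33 genes under 1 RPKM, 12 had a mean of at least 0.1 RPKM and 21 were below that. The monoamine carriers were near the bottom: SLC6A3 and SLC6A4 had at most 2 reads in any library. SLC6A19, the neutral amino acid carrier of gut and kidney, had at most 2 reads with mimics and at most 8 with mimics-NC, and SLC38A3 (SNAT3), known from mature liver, had at most 2 and at most 4. SLC38A4 (SNAT4), also known from liver, had 0.041 to 0.097 RPKM in both groups. For these 5 genes, with at most 18 reads in any library, a change was not detectable at this depth.

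Summed within each library, the 51 genes came to 155, 151 and 151 RPKM with mimics and to 130.4, 130.2 and 128 RPKM with mimics-NC, 1.18 times as much with the mimics. The 5 most abundant genes, SLC38A2, SLC1A5, SLC38A10, SLC38A1 and SLC7A5, made up 68.8% to 72.2% of the sum. The SLC1 family summed to 33.1 ± 1.44 RPKM with mimics and 22.7 ± 0.822 with mimics-NC, a ratio of 1.46. The ratio was 1.13 in SLC38 (71.1 ± 1.53 and 63.0 ± 0.754 RPKM) and 1.16 in SLC7 (32.4 ± 1.65 and 28.0 ± 0.911 RPKM). It was 1.04 in SLC43, 0.996 in SLC6 and 0.900 in SLC36. SLC1A5 took 17.6% to 20.0% of the whole sum in the mimic libraries and 14.5% to 15.2% in the mimics-NC libraries, ranges that did not overlap. SLC38A10 took 13.7% to 14.2% and 15.1% to 16.0%.

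**Figure D3:**
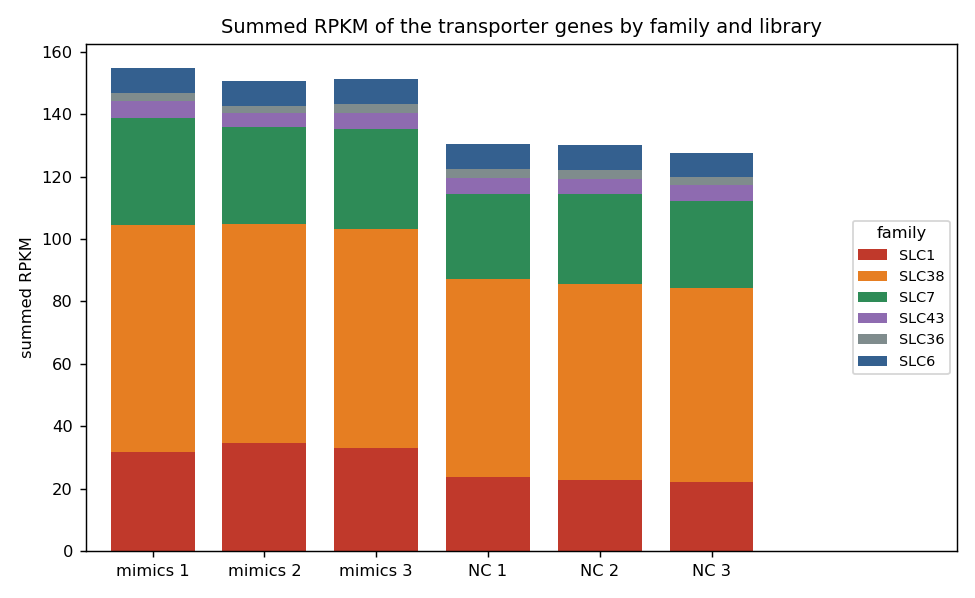
Summed RPKM of the 51 transporter genes in each library, stacked by family, with the 3 mimic libraries on the left and the 3 mimics-NC (NC) libraries on the right. The bars reach 151 to 155 RPKM with mimics and 128 to 130.4 RPKM with mimics-NC, and the SLC1 layer at the base is 1.46 times as high with the mimics.

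By the carriers' roles, the 4 tested genes for sodium-dependent uptake or exchange of neutral amino acids (SLC1A4, SLC1A5, SLC38A1, SLC38A2) all rose, with a median log2 fold change of 0.28. Both cationic carriers rose, with a median of 0.26. Of the genes of these 2 roles, SLC1A5 and SLC38A2 alone kept their call in all 14 alternative fits. Of the 3 tested heavy-chain exchangers 1 rose, and of the 3 tested lysosomal carriers 1 rose, SLC7A9 and SLC38A7. Neither of the 2 tested carriers of taurine, betaine and GABA, SLC6A6 and SLC6A12, rose. The acidic carrier SLC1A2 and the facilitated carrier SLC43A1 did not pass either. SLC38A6 and SLC38A10, members of the SLC38 family with less settled substrates, were kept apart as other carriers, and neither passed. That all tested sodium-dependent carriers rose thus depends on how the roles were assigned. Over all genes tested, 11.7% rose by limma, and no role was tested as a set.

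**Figure D4:**
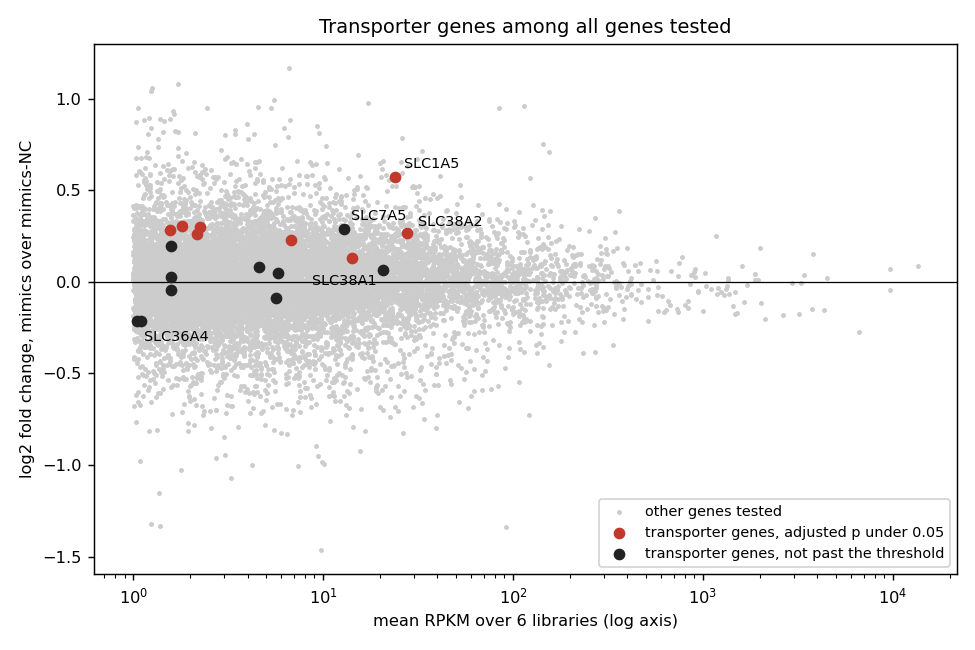
Log2 fold change against mean RPKM (log axis) for the 13158 genes tested, in grey, with the 8 transporter genes that rose in red and the 10 others in black. Among the abundant transporter genes SLC1A5 lies at 0.57, SLC38A2 at 0.27 and SLC38A1 at 0.13, while SLC36A4, at the filter's edge, lies at -0.21.

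The 8 tested genes with a seed match to miR-361-3p had a median log2 fold change of 0.26 and the 10 without had 0.072. Over all genes tested with a UTR, the medians were 0.0058 with a match and 0.0097 without. Of the genes with a match, 4 rose, among them SLC1A4, SLC7A1 and SLC7A2, and SLC1A2, SLC7A5, SLC6A6 and SLC36A1 did not pass the test. Of the 50 transporter genes with an annotated 3' UTR, expressed or not, 21 held a match.

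Promoters were searched for TGATGNAAN, the core of the amino acid response element through which ATF4 is known to act, on both strands of the RefSeq windows that run from 250 bases before to 50 bases after each annotated start. Windows were found for 14 of the 18 tested genes (not for SLC1A2, SLC6A6, SLC6A12 and SLC7A2), and 40 of all 51. Of the 14, 4 held the motif, against 2.58% of the 8067 genes tested with a window. All 4 are genes that rose, SLC1A4, SLC1A5, SLC38A1 and SLC7A1, and 1 gene below the filter, SLC1A3, held it too. For SLC1A4, SLC1A5 and SLC38A1 the motif lies in 1 of several annotated start windows, in each case the one furthest downstream. A gene was counted if any of its windows held the motif, and the number of windows per gene was not matched to that of all genes. Stretches of 60 bases (GRCh38.p14, in the direction of the gene) are shown for the 4 genes, with the motif in capitals; in SLC1A4 it is on the reverse strand.
SLC1A4, chr2:64989366-64989425, plus strand: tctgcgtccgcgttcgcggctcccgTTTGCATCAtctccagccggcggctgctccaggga
SLC1A5, chr19:46784877-46784936, minus strand: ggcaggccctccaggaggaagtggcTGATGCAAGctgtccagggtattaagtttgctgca
SLC38A1, chr12:46266486-46266545, minus strand: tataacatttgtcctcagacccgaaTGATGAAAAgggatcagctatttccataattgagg
SLC7A1, chr13:29595647-29595706, minus strand: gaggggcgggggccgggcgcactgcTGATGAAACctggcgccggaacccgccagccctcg

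These matches describe letters in the windows and do not show binding. SLC38A2, SLC38A7 and SLC7A9 rose with no match in their windows.

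The partners of the transporters were followed in the same fit. SLC3A2 (4F2hc), the heavy chain that SLC7A5, SLC7A6 and SLC7A11 need at the membrane, rose. It was at 28.0, 26.1 and 26.8 RPKM with mimics and at 22.4, 23.5 and 22.9 RPKM with mimics-NC, a log2 fold change of 0.23 (SE 0.039, adjusted p = 0.0078). The call held in all 14 alternative fits. SLC3A1, the partner of SLC7A9, was below the filter at 0.773, 0.758 and 0.776 RPKM with mimics and at 0.659, 0.664 and 0.572 RPKM with mimics-NC. CLTRN (listed as TMEM27), a partner of SLC6A19, had at most 0.11 RPKM.

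Among 12 tested amino acid carriers of other families 2 rose and 0 fell by limma and by voom, against 11.7% and 9.85% of all genes tested by limma and 12.6% and 15.7% by voom. Both are the mitochondrial aspartate and glutamate carriers of the malate-aspartate shuttle. SLC25A12 was at 3.70, 4.34 and 4.40 RPKM with mimics and at 2.73, 2.68 and 2.76 RPKM with mimics-NC (log2 fold change 0.52, adjusted p = 0.0029). SLC25A13, the liver form, was at 20.3, 20.6 and 20.4 RPKM with mimics and at 17.7, 16.5 and 17.7 RPKM with mimics-NC (log2 fold change 0.24, adjusted p = 0.0068). Both kept their call in all 14 alternative fits. The list had a median log2 fold change of 0.023.

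Of 27 tested genes of amino acid sensing by mTORC1, 3 rose and 2 fell by limma, and 6 rose and 4 fell by voom; the median log2 fold change was 0.074. Counts by limma are near the shares over all genes tested, 11.7% higher and 9.85% lower. By voom those shares were 12.6% higher and 15.7% lower. At an unadjusted p under 0.05 by limma were 12 of the 27, beside 4721 of the 13158 genes tested. SESN2, the leucine sensor, was at 5.61, 5.18 and 5.31 RPKM with mimics and at 4.09, 4.02 and 3.76 RPKM with mimics-NC (log2 fold change 0.40, adjusted p = 0.0028). MTOR, the kinase itself, fell to 5.88, 5.29 and 5.27 RPKM with mimics, against 7.26, 7.08 and 7.15 RPKM with mimics-NC (log2 fold change -0.36, adjusted p = 0.0039). LAMTOR5, of the Ragulator complex, rose by 0.27 on the log2 scale (adjusted p = 0.015), as did RPTOR, named after its values were seen, by 0.24 (0.017). RRAGA, one of the Rag GTPases that recruit mTORC1 to lysosomes, fell by 0.29 (adjusted p = 0.048). Of the fits with 1 library left out, RRAGA passed in the one that dropped mimic replicate 2 (0.0059, others up to 0.135), and that of RPTOR was lost without mimic replicate 3 or mimics-NC replicate 2 or 3 (up to 0.061).

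Of 5 tested genes that act on transporter turnover, 2 rose and 0 fell by limma, and 3 rose and 0 fell by voom, beside the same shares over all genes tested (11.7% and 9.85%, and 12.6% and 15.7%). NEDD4, a ubiquitin ligase, was at 9.43, 8.52 and 9.24 RPKM with mimics and at 7.71, 7.42 and 7.77 RPKM with mimics-NC (log2 fold change 0.23, adjusted p = 0.017). Its call was lost without mimic replicate 1 or 3 or mimics-NC replicate 2 (adjusted p up to 0.060). ARRDC3, an arrestin-domain adaptor of ubiquitin ligases, was at 2.05, 2.25 and 2.25 RPKM with mimics and at 1.74, 1.87 and 1.67 RPKM with mimics-NC (log2 fold change 0.25, adjusted p = 0.037), and of the fits with 1 library left out it passed in the one that dropped mimic replicate 1 (0.048, others up to 0.11).

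**Figure D5:**
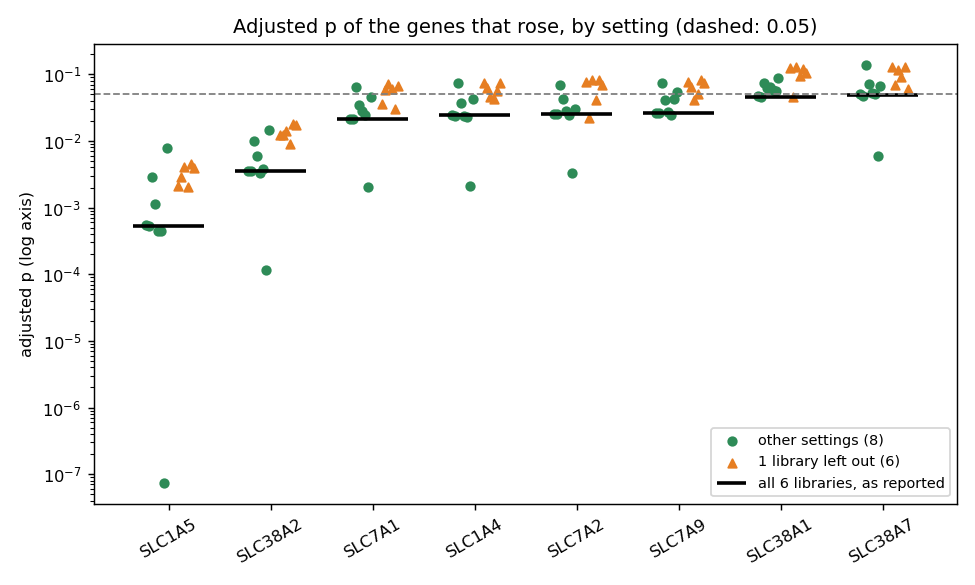
Adjusted p (log axis) of the 8 transporter genes that rose, with the reported value as a bar, 8 other settings as circles, the 6 fits with 1 library left out as triangles, and the threshold of 0.05 as a dashed line. SLC1A5 and SLC38A2 stay below the line in all 14 alternatives, and the other 6 genes each cross it in some.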

How the data were processed

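Stranded mRNA libraries for the MGI platform were made from total RNA, per the labels' protocols. The authors deposited RPKM values for 6 libraries with each gene's length in bases and its GRCh38 exons; edgeR 3.12.1, Trimmomatic 0.36 and Subread 1.5.1 with featureCounts are named, per the submitters' processing notes. The sources used here give no aligner, annotation release or strand setting. RPKM times length summed to 1000000 per library, and 100% of the recovered reads were within 0.01 of a whole number.

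Genes averaging 1 RPKM or more were fitted as log2(RPKM + 0.5) with limma 3.58.1 (R 4.3.3; empirical Bayes, intensity trend, two-sided), with Benjamini-Hochberg adjustment over 13158 genes and a threshold of 0.05. Fold changes on this scale understate those of low genes. On simulated reads with 13084 genes fitted, 82.0% of genes raised by 0.5 on the log2 scale and 0.101% of unchanged genes were called. The simulation used the same dispersion for every gene and changed far fewer genes than were called in the data. No change smaller than 0.5 was simulated, so these shares do not apply to the smaller rises reported here.

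Alternatives were other pseudocounts, filters and scalings, voom on recovered reads, a replicate term and leaving out each library. Members, lists (66 of 68 non-marker entries found, 6 under an older symbol matched by position) and tests were chosen with earlier results of these data known. Named genes are all transporter genes past the threshold, the 2 most abundant per family, the 2 on each side of the filter, and up to 4 per other list. RPTOR was added after its values were seen, and others are given as ranges or because they partner or overlap these. A few genes and sequences are not reported here.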

Additional observations from a re-analysis of the deposited data

How the results depend on the processing

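The 8 transporter genes that rose kept their direction in all 14 alternatives, while the count that passed changed. It was 3 with no filter, 5 with the replicate block, 2 to 4 with 1 library left out, and 6 to 9 in the other settings, and 0 fell except by voom (2). All-gene counts with no filter were 870 higher and 846 lower, voom gave 2062 lower, and leaving out 1 library gave 889 to 1197 higher and 880 to 996 lower. The other lists had 1, 12, 27 and 5 genes tested, and in them together 8 rose and 2 fell. Over all genes tested, 11.7% rose and 9.85% fell. In these lists 5 rose with the replicate block, and leaving out 1 library gave 5 to 8 higher and 1 to 2 lower. In them 1 fell with no filter, with the 0.1 RPKM filter and with the replicate block, and 4 by voom. More genes, of lower level, entered the fit with no filter (33707) and with the 0.1 RPKM filter (20975), and fewer samples entered the leave-one-out fits. The cause of these changes in count was not tested. The log2 fold change of SLC38A6 was -0.017 without mimic replicate 2 and -0.015 without mimics-NC replicate 1, with a range up to 0.070, against 0.027 with all libraries. Family sums moved by less than the spread between replicates. Replicate numbers did not pair the libraries: deviations of same-numbered libraries correlated with r of -0.052, -0.016 and 0.023, and 0 of 3 mimic libraries correlated best with its own number. The planned edgeR test on recovered reads was not run, since the deposited unit is RPKM. At 35020139 to 52977132 reads, a 2 kilobase gene at 1 RPKM rests on 70.0 to 106 reads, and genes under 0.1 RPKM on few.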
